A study of Mus musculus with 8 samples.

Results

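H3K9me3 peaks at vomeronasal and formyl peptide receptor genes were described in colon crypts of WT and Smarcad1-KO mice. The set was every peak of the deposited all-peaks table whose annotated gene belonged to the Vmn1r, Vmn2r, Tas2r, Taar or Fpr families, and 239 of 53761 peaks met this rule. Of these, 81 were annotated to 37 Vmn1r genes, 156 to 52 Vmn2r genes and 2 to the formyl peptide receptor gene Fpr3. No peak was annotated to a Tas2r (bitter taste receptor) or Taar (trace amine-associated receptor) gene, so the set holds vomeronasal and formyl peptide receptor peaks and no taste receptor peak.

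The samples were whole crypt isolates of the colon from male C57BL/6 mice, either wildtype (WT) or with Smarcad1 deleted by Vil-Cre (KO). Smarcad1 is a SWI/SNF-like chromatin remodeler. Vil-Cre is driven by the villin promoter and acts in intestinal epithelium, so other cells in a crypt isolate keep the gene, and the floxed allele came from 1 targeted ES cell line. ChIP for the repressive mark H3K9me3 gave 3 libraries per genotype, with 1 input library (chromatin before immunoprecipitation) per genotype. The ages of these mice are not given in the sources used here. The ChIP libraries measure neither Smarcad1 RNA nor cell type marker RNA, so the deletion and the crypt label were not checked here. The deposited level of a peak is a log2 read count matched to one distribution across the 6 ChIP libraries, so a uniform gain or loss over nearly all peaks would not be visible. Depth was low: the median receptor peak held 13, 18 and 19 reads in WT replicates 1, 2 and 3, and 13, 15 and 18 reads in KO replicates 1, 2 and 3, which limits what could be detected at single peaks.

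Vomeronasal receptors are G protein-coupled receptors of sensory neurons in the vomeronasal organ, where they detect pheromones and other social cues. Vmn1r (V1R) genes are short, with a single coding exon, and their receptors act with Gnai2. Vmn2r (V2R) genes have several exons and encode a large extracellular ligand-binding domain, and their receptors act with Gnao1. Both families lie in tandem arrays with many pseudogenes that arose by repeated duplication. H3K9me3 is a mark of heterochromatin, and in olfactory neurons it covers silent receptor genes.

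One gene label needs care. In the deposited annotation, 20 of the 81 Vmn1r peaks were assigned to Vmn1r90, whose gene identifier belongs to Nlrp5-ps, a 91.8-kb pseudogene, in GENCODE vM21. Of these 20 peaks, 2 lay within 5 kb of a receptor gene of GENCODE vM21, whereas all other 219 peaks of the set did. Results that rest on the Vmn1r90 label are therefore given with and without it. For the 90 gene identifiers of the set, 81 were found in GENCODE vM21 and 77 had the same symbol there.

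Several stretches of reference sequence (RefSeq, GRCm38.p6, plus strand) show what lies under these peaks. The first is from the Vmn1r3 peak with the largest decrease in KO. Capitals mark each base that equals the base 22 positions before it, and 116 of the 150 bases did.
Vmn1r3 chr4:3180601-3180750: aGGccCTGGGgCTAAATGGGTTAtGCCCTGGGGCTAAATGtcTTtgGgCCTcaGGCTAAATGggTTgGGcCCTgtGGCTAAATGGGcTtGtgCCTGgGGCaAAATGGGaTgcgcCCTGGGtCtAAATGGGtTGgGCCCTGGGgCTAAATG
This 22-bp tandem repeat runs through 3 peaks of the set. Over whole peaks, between 74.3% (Vmn1r2) and 75.4% (Vmn1r3) of bases matched the base 22 positions earlier, with Vmn1r238 between them, against a median of 27.2% over all peaks. Of the 53761 peaks, 10 reached 60%, and these 3 were among them. For 7 of the 10, these 3 included, 22 bp was the shift with the most matching bases among shifts of 2 to 100 bp. The Vmn1r2 and Vmn1r3 peaks lay 126.1 kb and 130 kb from the first sequenced base of chromosome 4.

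The next pair comes from peaks annotated to Vmn2r-ps113 and Vmn2r91, neighbouring genes on chromosome 17 whose peaks aligned over 1059 bp at 98.0% identity. Capitals mark the 2 positions that differ between the stretches.
Vmn2r-ps113 chr17:18078443-18078592: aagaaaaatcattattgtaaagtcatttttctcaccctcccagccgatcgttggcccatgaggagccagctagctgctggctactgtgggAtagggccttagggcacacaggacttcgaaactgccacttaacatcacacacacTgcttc
Vmn2r91 chr17:18140851-18141000: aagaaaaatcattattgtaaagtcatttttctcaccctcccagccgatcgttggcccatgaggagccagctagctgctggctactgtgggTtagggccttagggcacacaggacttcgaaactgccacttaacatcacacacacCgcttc
Such likeness was common. When each peak was aligned to all others of the set, 89 of 156 Vmn2r peaks (57.1%) and 34 of 81 Vmn1r peaks (42.0%) had a match of at least 80% identity over at least 200 bp in a peak annotated to a different gene. Reads that map equally well to such copies have a low mapping quality and were removed by the authors at a cutoff of 20. How many reads these peaks lost in this way was not measured here.

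The remaining stretches are from the centres of the peak with the largest increase (Vmn2r72-ps), of a wide Vmn2r peak with lower values in KO (Vmn2r61) and of the wider Fpr3 peak. Capitals mark CpG dinucleotides, the sites of DNA methylation.
Vmn2r72-ps chr7:85742101-85742250: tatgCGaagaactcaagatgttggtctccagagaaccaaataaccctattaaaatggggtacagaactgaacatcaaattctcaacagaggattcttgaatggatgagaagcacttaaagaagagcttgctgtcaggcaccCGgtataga
Vmn2r61 chr7:42253501-42253650: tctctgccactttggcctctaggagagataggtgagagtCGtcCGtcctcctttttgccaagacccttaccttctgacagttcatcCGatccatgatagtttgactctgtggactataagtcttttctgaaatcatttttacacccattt
Fpr3 chr17:17960176-17960325: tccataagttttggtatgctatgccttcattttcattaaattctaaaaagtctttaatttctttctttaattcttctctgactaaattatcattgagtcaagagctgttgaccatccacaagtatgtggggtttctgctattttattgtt
There were 2 CpGs in the Vmn2r72-ps stretch, 3 in the Vmn2r61 stretch and 0 in the Fpr3 stretch. The median receptor peak held 0.444 CpGs per 100 bp, compared with 0.667 over all peaks, and its GC content was 40.1% compared with 41.9%. Repeats, taken as the soft-masked bases of the assembly, covered a median of 56.5% of a Vmn2r peak and 44.6% of a Vmn1r peak (40.1% without Vmn1r90), against 37.8% over all peaks and 43.3% over the 289 peaks at olfactory receptor (Olfr) genes. No test was run on these shares.

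The receptor families differed in how often their genes lay near a peak. Independently of the deposited annotation, 116 of 238 Vmn2r genes in GENCODE vM21 (48.7%) had a peak over them or within 5 kb, compared with 88 of 327 Vmn1r genes (26.9%), 1 of 8 Fpr genes (12.5%), 1 of 40 Tas2r genes (2.5%) and 0 of 16 Taar genes. Among all protein-coding genes, 5487 of 21938 had one. The median distance from a gene to the nearest peak was 6.1 kb for Vmn2r, 14.7 kb for Vmn1r, 71.9 kb for Tas2r and 73.5 kb for Taar. Vmn2r genes are long, with a median of 18.6 kb against 1.22 kb for Vmn1r genes, and so offer more sequence for a peak. Counted per length, the gene bodies with 5 kb on each side held 45.3 peaks per Mb for Vmn2r, 35.6 for Vmn1r, 12.5 for Fpr and 2.6 for Tas2r, compared with 19.7 over the whole genome. Both vomeronasal families therefore lay in sequence with more peaks than the genome as a whole, and the bitter taste and trace amine receptors in sequence with fewer. The Tas2r gene with a nearby peak was the pseudogene Tas2r145-ps3, and no Taar gene had a peak closer than 5.67 kb (Taar9).

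**Figure D1:**
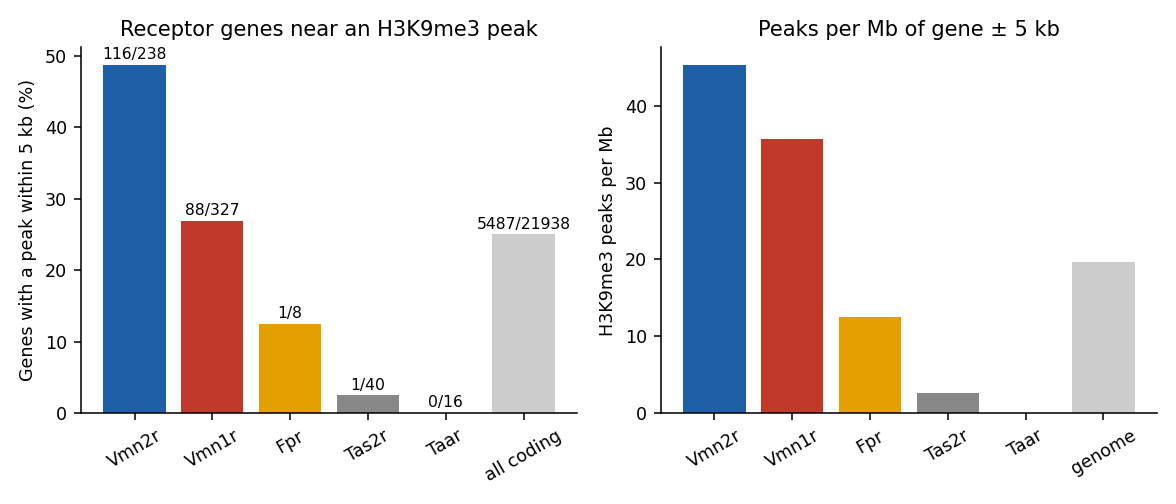
Left, percentage of genes with an H3K9me3 peak over them or within 5 kb, for all protein-coding genes and each receptor family, pseudogenes included. The number of genes stands above each bar. Right, peaks per Mb of the sequence made of the receptor genes and 5 kb on each side, and of the whole genome. Vmn2r is highest in both panels, at 48.7% and 45.3 peaks per Mb, and Taar is at 0.

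Few peaks of the set covered the start of their annotated gene, and parts of the arrays held no peak. On chromosome 7 the nearest peak lay 1400039 bp from Vmn2r-ps49 and 1302541 bp from Vmn1r-ps75. Whether the removal of reads from near-identical copies left such stretches empty was not tested. GENCODE vM21 placed 92 of the 156 Vmn2r peaks in an intron, 30 over an exon and 34 outside the gene, whereas the 81 Vmn1r peaks split into 24 in an intron, 22 over an exon, 24 outside and 11 whose gene identifier was not found. Without the Vmn1r90 label, 7 of the 61 remaining Vmn1r peaks were in an intron, 21 over an exon, 22 outside and 11 not found. The start of the annotated gene was covered by 2 of the 228 peaks whose gene identifier was found, and by 1 peak without the Vmn1r90 label. No such share over all peaks is given, so these counts do not show less marking at gene starts. By the deposited labels, most Vmn2r genes with a peak had more than 1 (34 of 52), while most Vmn1r genes had 1 (23 of 37). These labels leave out nearby peaks: Vmn1r73 had 4 labelled peaks, but 13 peaks lay within 5 kb of it in GENCODE vM21. Vmn2r60 held the most among Vmn2r genes, 15 peaks along its 88.4 kb, followed by Vmn2r59 with 10 and the pseudogene Vmn2r-ps54 with 9. Peaks of 1 gene are not independent of each other.

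With neighbours no more than 1 Mb apart joined, Vmn2r peaks formed 7 clusters and 5 single peaks, and Vmn1r peaks 9 clusters and 4 single peaks. The largest Vmn2r cluster, chr7:41665951-42935400, held 49 peaks at 6 genes, among them Vmn2r-ps54, Vmn2r59, Vmn2r60 and Vmn2r61. Next came chr17:18076501-20548050 with 38 peaks at 16 genes and chr7:84954001-87036450 with 32 peaks at 11 genes. Among Vmn1r peaks the largest cluster was the 20 peaks labelled Vmn1r90 (chr7:14526751-14625150). The next held 17 peaks at 8 genes (chr7:11664001-12306600). Chromosome 7 carried 68 of the 81 Vmn1r and 89 of the 156 Vmn2r peaks. Most other peaks inside these clusters had no annotated gene: of 208 peaks within the chromosome 17 cluster, 170 had none.

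In width and level the receptor peaks lay close to all peaks. The median width was 900 bp for Vmn2r and 1200 bp for Vmn1r, compared with 1050 bp over all peaks and 2100 bp at the Zfp (zinc finger protein) genes, another large family known for H3K9me3. There were 16 receptor peaks of 3 kb or more (6.69%), compared with 6.54% of all peaks. The widest were Vmn2r104 (10200 bp), Vmn2r61 (8850 bp), Vmn1r238 (8400 bp) and Vmn2r112 (7350 bp). In WT, the median level per kb was 3.99 ± 0.04 (SD, n = 3) on the log2 scale for Vmn1r, 4.00 ± 0.05 for Vmn2r and 3.78 ± 0.21 for Fpr, beside 4.00 over all peaks and 4.19 at Zfp genes. Both vomeronasal medians differed from that of all peaks by less than their spread between replicates. Without the peaks labelled Vmn1r90 the Vmn1r median was 4.04 ± 0.02, above that of all peaks by more than its spread. Over peaks at any gene, which every member is by rule, the WT median was also 4.04, so no elevation particular to Vmn1r was seen. The median log2 level of WT over its input, which is not scaled for depth, was 0.82 for Vmn1r and 0.86 for Vmn2r, against 0.79 over all peaks and 1.18 for Zfp.

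Within each family the level per kb varied. Vmn1r238 was highest among Vmn1r peaks at 5.14, and Vmn1r69 (chr7:10606501-10609050, in an intron) lowest at 3.51. Among Vmn2r peaks, a 300-bp peak in an intron of Vmn2r-ps54 (chr7:41700901-41701200) was highest at 4.91 and Vmn2r72-ps lowest at 3.41. The value at Vmn2r-ps54 rests on few reads, and 42 receptor peaks were 450 bp wide or less. Fpr3, whose product binds formylated peptides, had intronic peaks of 3000 bp at 3.79 and of 1650 bp at 3.77.

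**Figure D2:**
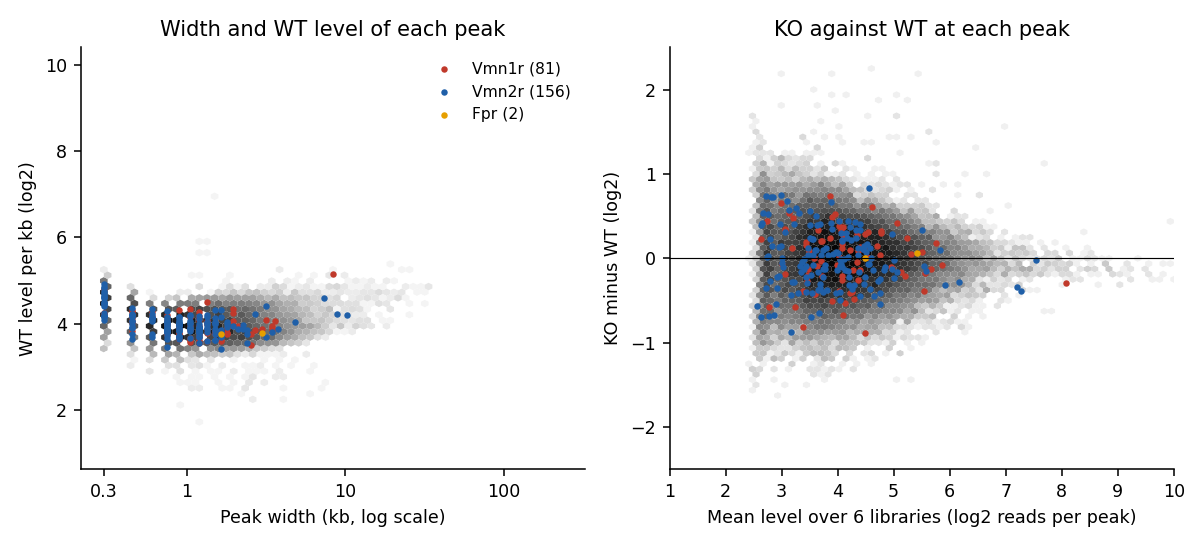
Left, WT level per kb (log2, mean of 3 libraries) of each peak against its width (log axis). Right, KO minus WT (log2) against the mean level over 6 libraries, without peaks outside the plotted range. Grey shows all peaks by number on a log scale, and coloured points show the 81 Vmn1r, 156 Vmn2r and 2 Fpr peaks. The receptor peaks lie within the grey cloud, and their changes span -0.89 to 0.84.

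H3K9me3 at these peaks was then compared between KO and WT, to ask whether receptor arrays gain or lose the mark when Smarcad1 is deleted. None of the 239 peaks passed a limma test fitted over all peaks (adjusted p under 0.05), where 1.66% of all peaks (892) did. At an unadjusted p under 0.05, 13 receptor peaks (5.44%) were found, 9 with lower and 4 with higher values in KO, compared with 10.6% of all peaks. In 37 peaks (15.5%) the KO and WT values did not overlap, beside 15.6% of all peaks. All KO values were above all WT values in 14 of these (7.2% of all peaks) and below them in 23 (8.42% of all peaks). Values were higher in KO at 119 peaks and lower at 120, beside 27023 and 26738 over all peaks. No receptor peak changed by 1 or more on the log2 scale, compared with 1061 of all peaks (1.97%). A missed call does not show equal levels: the median half-width of the 95% confidence interval was 0.62, and the interval lay within 1 log2 unit of no change for 154 of 239 peaks.

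Averaged over its peaks, each family had KO libraries within or near the range of the WT libraries. The mean Vmn2r level was 3.87, 3.91 and 3.95 in the WT libraries and 3.88, 3.91 and 3.92 in the KO libraries, a difference of -0.01. The mean Vmn1r level was 4.13, 4.19 and 4.13 in WT and 4.18, 4.10 and 4.20 in KO, a difference of 0.01, and -0.05 without the peaks labelled Vmn1r90. For Fpr3 the mean was 4.74, 4.91 and 5.15 in WT and 4.67, 5.10 and 5.13 in KO, a difference of 0.04. The WT and KO libraries overlapped in all 3 families, and no test was run on these means. Input reads at the set numbered 2732 in WT and 2639 in KO, a ratio of 0.966 beside 0.943 over all peaks.

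Within Vmn1r, the peaks fell into subsets that were chosen after their values were seen and carry no test. The 20 peaks labelled Vmn1r90 averaged 3.81, 3.98 and 3.85 in WT and 4.21, 4.00 and 4.03 in KO, with 15 of 20 higher in KO and a difference of 0.20. The groups did not overlap, although KO replicate 2 exceeded WT replicate 2 by little. The 13 Vmn1r peaks outside chromosome 7 averaged 5.19, 5.24 and 5.06 in WT and 4.87, 4.71 and 4.97 in KO, with 12 of 13 lower in KO and a difference of -0.32. Vmn1r11 was the one with a higher mean in KO, by 0.08. Vmn2r peaks outside chromosome 7 differed by -0.02 and those on chromosome 7 by 0.01.

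**Figure D3:**
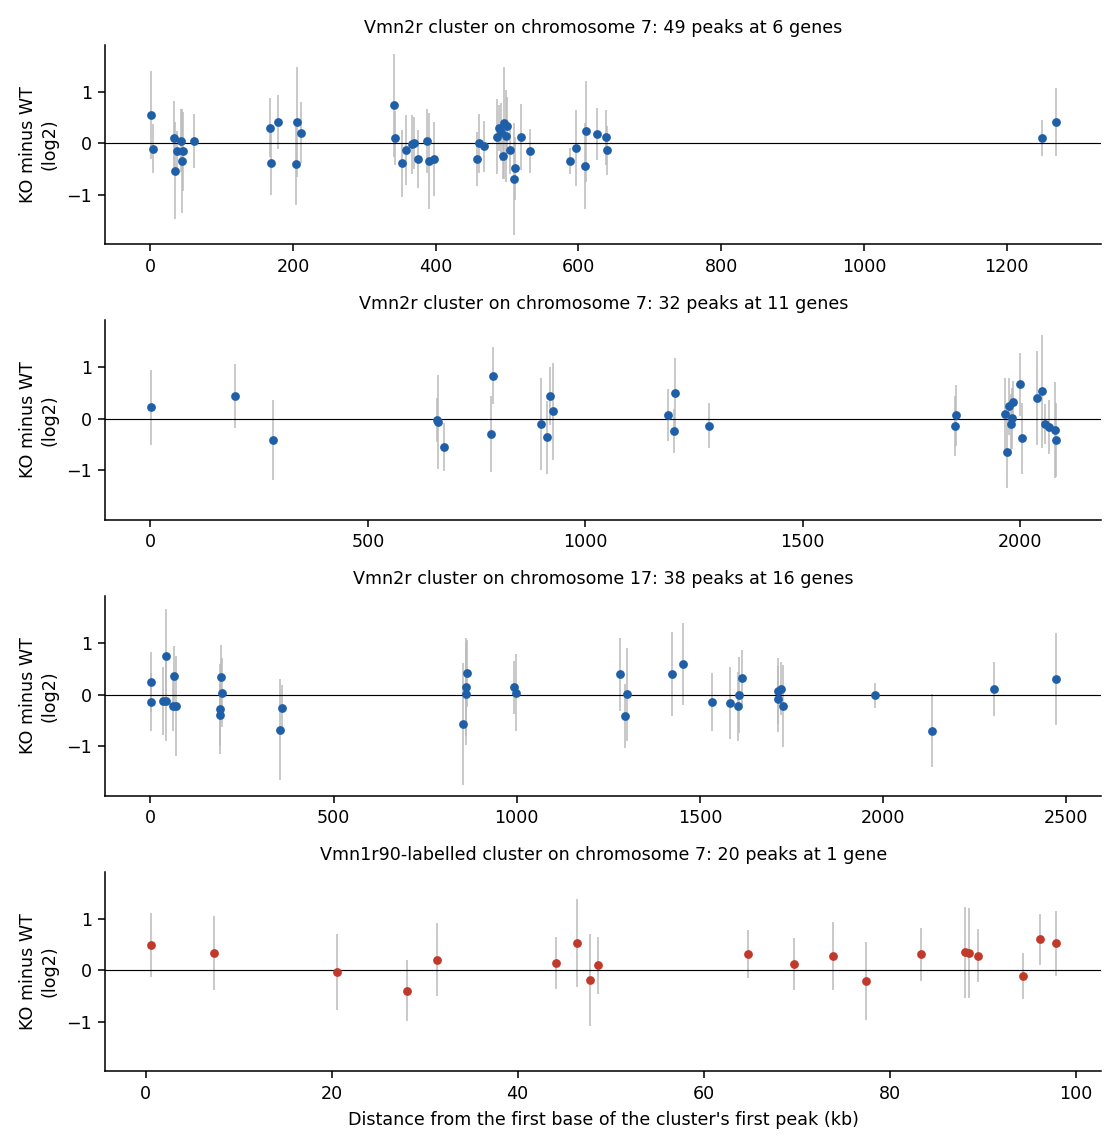
KO minus WT (log2, with the 95% confidence interval from limma) of each peak along the 3 largest Vmn2r clusters and the peaks labelled Vmn1r90, by distance from the first base of the cluster. Points scatter on both sides of 0 in the Vmn2r clusters, and 15 of the 20 Vmn1r90 points are above 0.

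The Vmn1r3 peak, upstream of the gene at chr4:3180001-3181350, was nearest to the threshold. Its level was 4.87, 5.08 and 4.84 in WT and 4.16, 3.49 and 4.48 in KO. Every KO value was below every WT value, with a difference of -0.89 (95% confidence interval -1.41 to -0.37, limma adjusted p = 0.0675). Vmn1r238 (chr18:3112501-3120900), which shares the 22-bp repeat and lay 112.5 kb from the first sequenced base of its chromosome, had levels of 8.09, 8.24 and 8.30 in WT and 7.99, 7.75 and 8.02 in KO. Here too the groups did not overlap, but the difference was smaller at -0.29 (limma adjusted p = 0.255). The third repeat peak, Vmn1r2, differed by -0.13 (limma adjusted p = 0.886). Of the 10 peaks with at least 60% of bases matching at 22 bp, 6 were lower and 4 higher in KO. Among the 7 whose best shift was 22 bp, the 3 receptor peaks included, 6 were lower and 1 higher in KO. By limma 0 of the 7 passed, and 4 had an unadjusted p under 0.05, beside 10.6% of all peaks. The repeat was examined after the values were seen, and the 7 include Vmn1r3, which had the smallest p of the set. Whether peaks with the repeat change more than others was not tested.

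Other Vmn1r peaks differed in both directions without passing the test. Vmn1r158 (chr7:22794451-22795350) had the largest increase of its family, from 3.88, 4.03 and 2.59 in WT to 4.34, 4.03 and 4.35 in KO, a difference of 0.74 (limma adjusted p = 0.386). WT replicate 3 alone was far below the rest, and without it the difference was 0.29 (limma adjusted p = 0.869). Vmn1r69, the lowest per kb, had 4.87, 5.00 and 4.70 in WT and 5.19, 5.12 and 5.51 in KO, a difference of 0.41 (limma adjusted p = 0.488). Among the lower ones, Vmn1r80 (750 bp) differed by -0.81 (limma adjusted p = 0.452), with 4.43, 2.87 and 4.05 in WT and 2.87, 3.02 and 3.02 in KO, and the groups overlapped. Vmn1r35 (1200 bp) differed by -0.67 (limma adjusted p = 0.35), with 4.87, 4.10 and 4.32 in WT and 3.71, 3.61 and 3.95 in KO, and its groups did not overlap.

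Among Vmn2r peaks the largest increase was in an intron of Vmn2r72-ps (chr7:85741351-85743000). Its level was 3.20, 4.54 and 4.65 in WT and 5.14, 4.95 and 4.82 in KO, with a difference of 0.84 (95% confidence interval 0.28 to 1.39, limma adjusted p = 0.138). WT replicate 1 stood apart from the other WT libraries, and without it the difference was 0.37 (limma adjusted p = 0.709). The mean WT level of the peak differed from its WT input by -0.45 on the log2 scale. The largest decrease was at Vmn2r7 (chr3:64761151-64761750), with 3.01, 3.77 and 4.05 in WT and 2.87, 2.32 and 3.02 in KO, a difference of -0.87 (limma adjusted p = 0.441), and the groups overlapped. With the input subtracted from each genotype the difference was -0.06 (limma adjusted p = 0.9).

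Among the widest peaks, Vmn2r61 (chr7:42249151-42258000) had 7.44, 7.36 and 7.31 in WT and 7.03, 7.0 and 7.05 in KO, a gap between groups well above the spread within them, with a difference of -0.34 that did not pass after adjustment (limma adjusted p = 0.206). Vmn2r112 (chr17:22620901-22628250) had 7.59, 7.42 and 7.40 in WT and 6.95, 6.69 and 7.62 in KO, a difference of -0.38 (limma adjusted p = 0.255) in which KO replicate 3 lay above all WT values. Vmn2r104 (chr17:20048851-20059050), the widest of all, had 7.41, 7.69 and 7.52 in WT and 7.56, 7.57 and 7.45 in KO, a difference of -0.01. Of the 16 peaks of 3 kb or more, 11 were lower and 5 higher in KO, and the 223 narrower ones split into 109 lower and 114 higher. This split was not tested or compared with all peaks of 3 kb or more, so it may not be particular to receptor peaks. The wider Fpr3 peak had 5.21, 5.22 and 5.70 in WT and 5.19, 5.53 and 5.60 in KO, with a difference of 0.07, and the narrower one differed by 0.01.

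**Figure D4:**
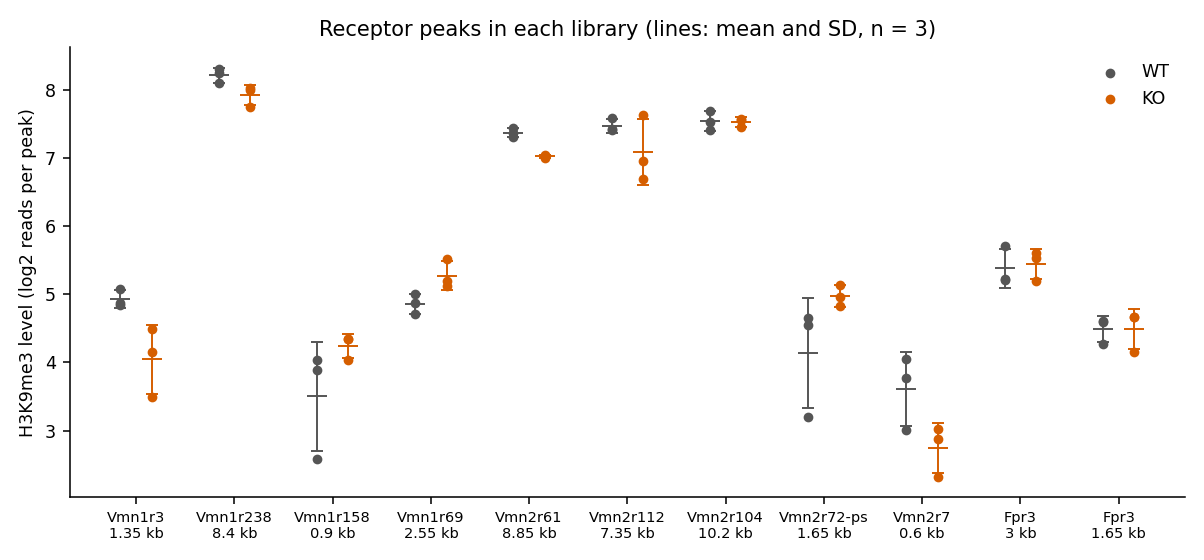
Level (log2 reads per peak, not divided by width) of 11 named receptor peaks in each WT and KO library, with bars for the mean and SD (n = 3). KO points sit below all WT points at Vmn1r3, Vmn1r238 and Vmn2r61 and above them at Vmn1r158, Vmn1r69 and Vmn2r72-ps.

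Peaks within 5 kb of a GENCODE vM21 vomeronasal receptor gene were also examined, whatever gene the deposited annotation gave them. Beside the members there were 100 such peaks at Vmn1r genes and 167 at Vmn2r genes, of which 94 and 150 had no gene in the deposited table. Near Vmn2r genes 0 of them passed the limma test and 18 (10.8%) had an unadjusted p under 0.05, beside 10.6% of all peaks. Near Vmn1r genes 1 decreased and 0 increased, and 6 of 100 had an unadjusted p under 0.05. The decreased peak (chr13:22167901-22169100) lay within 5 kb of Vmn1r191 and fell from 4.70, 5.38 and 5.22 in WT to 3.26, 3.94 and 3.31 in KO. All KO values were below all WT values, with a difference of -1.60 (SE 0.27, limma adjusted p = 0.0001). The adjacent member peak at Vmn1r191 itself (chr13:22171801-22174950) differed by -0.39 (limma adjusted p = 0.444), and its groups overlapped.

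Genes that work with these receptors, or with olfactory and taste receptors, were counted too. Of 13 genes of vomeronasal and olfactory signalling, 6 (46.2%) had peaks assigned to them, 12 in all, at the G protein subunits Gnao1, Gnal and Gng13, the adenylyl cyclase Adcy3 and the channels Cngb1 and Ano2. Several of the 12 lay at Gnal alone, and no such share over all genes under the deposited labels is given. By limma 0 of these 12 passed, and 2 had an unadjusted p under 0.05, beside 10.6% of all peaks. No peak lay at the H2-M genes whose products accompany V2Rs on the neuron surface, or at an Esp (exocrine gland-secreted peptide) gene. Of 3 peaks at Mup genes, which encode the major urinary proteins that vomeronasal neurons detect, 1 decreased. This 11550-bp peak at Mup5 (chr4:61820101-61831650) had 8.13, 8.04 and 8.03 in WT and 7.55, 7.28 and 7.52 in KO, a difference of -0.62 (SE 0.11, limma adjusted p = 0.00039) with no overlap between groups. Of 11 taste signalling genes, 1 had a peak, at Gnat3 (gustducin), which did not pass. At the larger comparison families, 2 of 289 Olfr peaks (0.692%) and 23 of 449 Zfp peaks (5.12%) passed, on either side of the 1.66% over all peaks.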

How the data were processed

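H3K9me3 ChIP-seq values of colon crypts came from 3 WT and 3 KO ChIP libraries and 1 input library per genotype. Per the submitters' processing notes, the reads were trimmed with Trim Galore 0.6.1 and mapped with Bowtie2 2.3.2. The methods state alignment to GRCm38, a minimum mapping quality of 20, removal of duplicates and peak calling with MACS in SeqMonk on all ChIP libraries against both inputs. The labels give single-end reads, whereas the methods give paired-end reads. The authors deposited log2 read counts per peak, matched across the 6 ChIP libraries, and unscaled log2 read counts for the inputs, where 0 stands for 0 or 1 read. Peaks carry the closest gene within 5 kb by the authors' annotation, which differs from GENCODE vM21, or no gene. A table of the authors' own changed peaks holds their fold changes and p-values and was not used.

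KO and WT were compared with limma 3.58.1 (R 4.3.3) on all 53761 peaks with genotype as the only factor, a variance prior that follows the mean level, two-sided tests and Benjamini-Hochberg adjustment, at an adjusted p under 0.05. The test was first tried on simulated data. Levels per kb subtract the log2 width in kb. Reads per peak were counted from the steps of the values up to 100 reads. Genes came from GENCODE vM21, sequence from RefSeq GRCm38.p6, and similarity between peaks from BLAST+ 2.17.0. Tables and plots were made in Python 3.11.15 with pandas 2.3.3, numpy 2.4.6 and matplotlib 3.10.9.

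Peaks named are those past the threshold, the widest, the highest and lowest per kb, the largest increase and decrease of each family and its largest cluster. Others with an unadjusted p under 0.05, subsets by chromosome, and the repeat and GENCODE comparisons were chosen after values were seen. The members and gene lists were chosen with earlier results of these data known. Replicates are separate libraries, which the study describes as biological replicates. Alternatives were another variance prior, a minimum mean level of 4, centring of the libraries, subtraction of the input, quantile normalization, a replicate block, stricter thresholds, overlapping peaks only, other averages, a cluster gap of 250 kb and leaving out each library. Leaving out Vmn1r90 was added after seeing the data.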

Additional observations from a re-analysis of the deposited data

How the results depend on the processing

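No receptor peak passed with another variance prior, centring or quantile normalization. Stricter thresholds, overlapping peaks only and leaving out Vmn1r90 only filtered the calls of the main fit. As the main fit had 0 calls, these settings could give no other count. With a replicate block the count was 0 (872 over all peaks). The correlations of same-numbered libraries were -0.0013, 0.0191 and 0.0164. They gave no sign of pairing, but at such low read counts they cannot exclude it. A minimum mean level of 4 gave 1 call, Vmn1r3 (adjusted p = 0.0432), among 118 peaks tested. ChIP minus input gave 85 calls of 239 (15873 over all peaks), and 1 input library per genotype, without replicates, enters every such difference. Leaving out 1 library gave 0 to 2 calls: 2 without KO replicate 3, Vmn1r3 (adjusted p = 0.0245) and Vmn2r112 (-0.65, adjusted p = 0.0019), and 1 without WT replicate 3, Vmn2r72-ps (adjusted p = 0.046). Without WT replicate 1 its difference was 0.37 (adjusted p = 0.709).

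The mean difference of Vmn1r was 0.11 with ChIP minus input, -0.11 with each gene counted once and -0.054 without Vmn1r90, and the Vmn1r level per kb without Vmn1r90 was 4.04. With ChIP minus input it was 0.029 for Vmn2r and -0.37 for Fpr, and the WT levels over input, as the mean over libraries of each library's median, were 0.81 for Vmn1r, 0.88 for Vmn2r and 1.06 for Fpr. A gap of 250 kb gave 14 Vmn2r clusters. Near-zero differences changed sign at the Fpr3 peaks and Vmn2r104. With ChIP minus input they were -0.22 and -0.52 at the narrower and wider Fpr3 peaks and 0.25 at Vmn2r104. When each library was left out they ranged from -0.11 to 0.17 at the narrower Fpr3 peak, from -0.018 to 0.23 at the wider one and from -0.081 to 0.061 at Vmn2r104. The cause of these changes was not tested. With medians of 13 to 19 reads per receptor peak, changes at narrow peaks, also of 1 log2 unit or more, could be missed.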
